A study of Mus musculus with 8 samples.

Results

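The chemokine genes described here are 10 mouse genes of the CC and CXC families, Ccl2, Ccl3, Ccl4, Ccl5, Ccl6, Ccl9, Cxcl1, Cxcl2, Cxcl3 and Cxcl10. They were chosen as the array probes whose accession is a RefSeq transcript of one of these genes, which gave 10 probes, 1 per gene, among 55681 probes for 37074 genes. The rule itself uses no measured value. The samples were ATF3 KO Ly6G+ neutrophils from mouse bone marrow, and they were set against WT Ly6G+ neutrophils from bone marrow, with 4 arrays each and both on a C57BL/6 background. ATF3 belongs to the ATF/CREB transcription factors and is switched on by cell stress; according to the title of the series, neutrophil migration was the subject. The cells were flushed from leg bones and taken with magnetic beads that bind Ly6G, a neutrophil surface protein, and their total RNA was read on Agilent arrays in a single colour. The labels give no age, no sex and no description of the Atf3 allele, and they do not say that the samples came from separate animals, so the p-values measure only the spread between these samples. The design text has RNA isolated straight after sorting, whereas the description of 7 of the 8 samples names methylcellulose culture with 4-OHT, and the labels therefore conflict on this point.

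Chemokines are small secreted proteins that steer leukocytes along concentration gradients through receptors coupled to G proteins. The CC and CXC families are named for the spacing of the first cysteines. Ccl3, Ccl4 and Ccl5 attract monocytes and T cells, Ccl2 acts on monocytes through CCR2, and Ccl6 and Ccl9 are rodent CC chemokines that bind CCR1 and are made by myeloid cells. Cxcl1, Cxcl2 and Cxcl3 are the CXCR2 ligands that recruit neutrophils, and Cxcl10 is an interferon-inducible ligand of CXCR3. In mouse macrophages ATF3 is known as a repressor of genes induced through Toll-like receptors. The genes lie in gene clusters, the 6 CC genes on chromosome 11 and the 4 CXC genes on chromosome 5. In the RefSeq order of coding genes Ccl5, Ccl9, Ccl6, Ccl3 and Ccl4 follow each other directly, as do Cxcl1 and Cxcl2.

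RefSeq promoters of GRCm38.p6, from 250 bases before to 50 bases after the annotated start, were matched for 7 of the 10 genes. The promoter of Ccl3 is shown because this gene was among the lowest in the ATF3 KO samples relative to WT, those of Cxcl1, Cxcl2 and Cxcl3 because the 3 CXCR2 ligands differed in whether they were detected, and that of Cxcl10 because it was high on 1 array together with interferon-induced genes. Capitals mark motifs, searched on both strands: an ATF/CRE site (TGACGTCA), its shorter form (TGACG), an AP-1 site (TGANTCA), the core of an NF-kB site (GGAATTTCC) and the core of an interferon-stimulated response element (GAAANNGAA). The shorter form lies within the full ATF/CRE site.
Ccl3 (chr11:83649329-83649628, minus strand): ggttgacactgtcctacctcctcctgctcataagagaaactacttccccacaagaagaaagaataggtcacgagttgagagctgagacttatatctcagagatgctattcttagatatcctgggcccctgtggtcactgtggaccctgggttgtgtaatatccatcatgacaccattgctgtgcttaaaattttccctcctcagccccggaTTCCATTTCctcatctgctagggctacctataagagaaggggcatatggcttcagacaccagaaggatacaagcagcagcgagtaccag
Cxcl1 (chr5:90890995-90891294, plus strand): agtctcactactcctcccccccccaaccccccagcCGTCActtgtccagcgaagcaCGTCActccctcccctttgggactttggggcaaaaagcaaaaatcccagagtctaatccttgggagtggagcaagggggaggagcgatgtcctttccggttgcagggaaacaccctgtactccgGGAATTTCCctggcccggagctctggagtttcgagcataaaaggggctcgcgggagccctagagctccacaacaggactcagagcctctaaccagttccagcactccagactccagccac
Cxcl2 (chr5:90903649-90903948, plus strand): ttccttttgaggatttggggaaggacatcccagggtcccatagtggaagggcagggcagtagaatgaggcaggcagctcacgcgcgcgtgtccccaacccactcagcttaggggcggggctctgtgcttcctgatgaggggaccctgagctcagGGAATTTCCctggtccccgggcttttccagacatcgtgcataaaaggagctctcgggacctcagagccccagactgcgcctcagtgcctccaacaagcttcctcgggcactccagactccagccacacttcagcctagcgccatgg
Cxcl3 (chr5:90785851-90786150, plus strand): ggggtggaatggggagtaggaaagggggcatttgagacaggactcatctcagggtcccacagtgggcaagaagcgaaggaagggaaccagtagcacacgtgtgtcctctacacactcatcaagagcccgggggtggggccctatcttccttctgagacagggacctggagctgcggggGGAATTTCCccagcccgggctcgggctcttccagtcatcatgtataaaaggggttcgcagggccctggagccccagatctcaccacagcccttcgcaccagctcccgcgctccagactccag
Cxcl10 (chr5:92348840-92349139, minus strand): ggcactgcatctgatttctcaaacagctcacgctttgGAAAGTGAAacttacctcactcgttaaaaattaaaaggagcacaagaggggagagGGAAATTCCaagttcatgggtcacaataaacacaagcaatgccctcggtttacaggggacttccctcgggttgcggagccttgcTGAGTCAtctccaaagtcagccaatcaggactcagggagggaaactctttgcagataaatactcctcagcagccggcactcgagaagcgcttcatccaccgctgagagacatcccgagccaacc

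The NF-kB core stood in the promoters of Cxcl1, Cxcl2, Cxcl3 and Cxcl10, 4 of the 7, whereas 0.317% of the 32851 promoters in the table hold it. The core of the interferon-stimulated response element was in Cxcl10 and Ccl3 (8.56% of all promoters). An AP-1 site was in Cxcl10 and in Ccl9, which is not printed (7.81% of all promoters). Cxcl1 had 2 copies of the shorter ATF/CRE form, which 20.8% of promoters hold, and the full site, held by 1.79%, was in 0 of the 7. The motif letters were set, and shortened once, after the promoters had been read, so these shares cannot test whether a motif is frequent among the 7. These matches describe letters in a window and nothing more.

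Each probe's processed signal was put on a log2 scale relative to the 75th percentile of its own array, so 0 is the level of that percentile and levels are comparable between arrays for 1 gene but not between genes. That percentile was 141 ± 21.3 in ATF3 KO and 186 ± 33.8 in WT arrays (SD, n = 4 each, exact permutation p = 0.0857, two-sided). Of all probes, the part well above background was 49.1 ± 3.29% in ATF3 KO and 51.0 ± 3.67% in WT arrays (exact permutation p = 0.486). Precision is limited by having 4 arrays a group. The single Atf3 probe read 1.24 ± 0.27 in ATF3 KO and 0.73 ± 0.07 in WT arrays (SD, n = 4 each, limma adjusted p = 0.121), and since the sources used here do not place it inside or outside the deletion, it checks nothing. All 15 neutrophil markers with a named probe were above background on all 8 arrays, and Ly6g, without one, was not analysed here. At an unadjusted limma p under 0.05, 6 of the 15 were higher in ATF3 KO and 0 lower. The shares of all genes tested were 9.38% and 14.5%. The median log2 difference of the 15 was 0.20, against −0.11 for all genes. All 8 arrays shared a slide and a scan, with ATF3 KO in one row of the slide and WT in the other, and genotype cannot be told apart from slide row.

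Of the 10 chemokine genes 8 entered the comparison, which took probes detected above background on 4 or more arrays, and Cxcl1 and Cxcl3 were detected on 0. With limma's test and Benjamini-Hochberg adjustment over 21247 genes, 0 of the 8 passed an adjusted p of 0.05, whereas 0.447% of all genes tested did (0.08% lower and 0.367% higher in ATF3 KO). At an unadjusted p under 0.05, 2 of the 8 differed (23.9% of all genes), both lower in ATF3 KO, against 14.5% of all genes lower and 9.38% higher. The values of ATF3 KO and WT did not overlap for the same 2, Ccl3 and Ccl4, and 15.1% of all genes had such groups (10.9% with ATF3 KO lower and 4.13% with ATF3 KO higher). The log2 difference was below 0 for 5 of the 8, against 65.5% of all genes, and the median was −0.10 for the 8 and −0.11 for all genes. The median of the 8 thus lay at that of all genes.

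**Figure D1:**
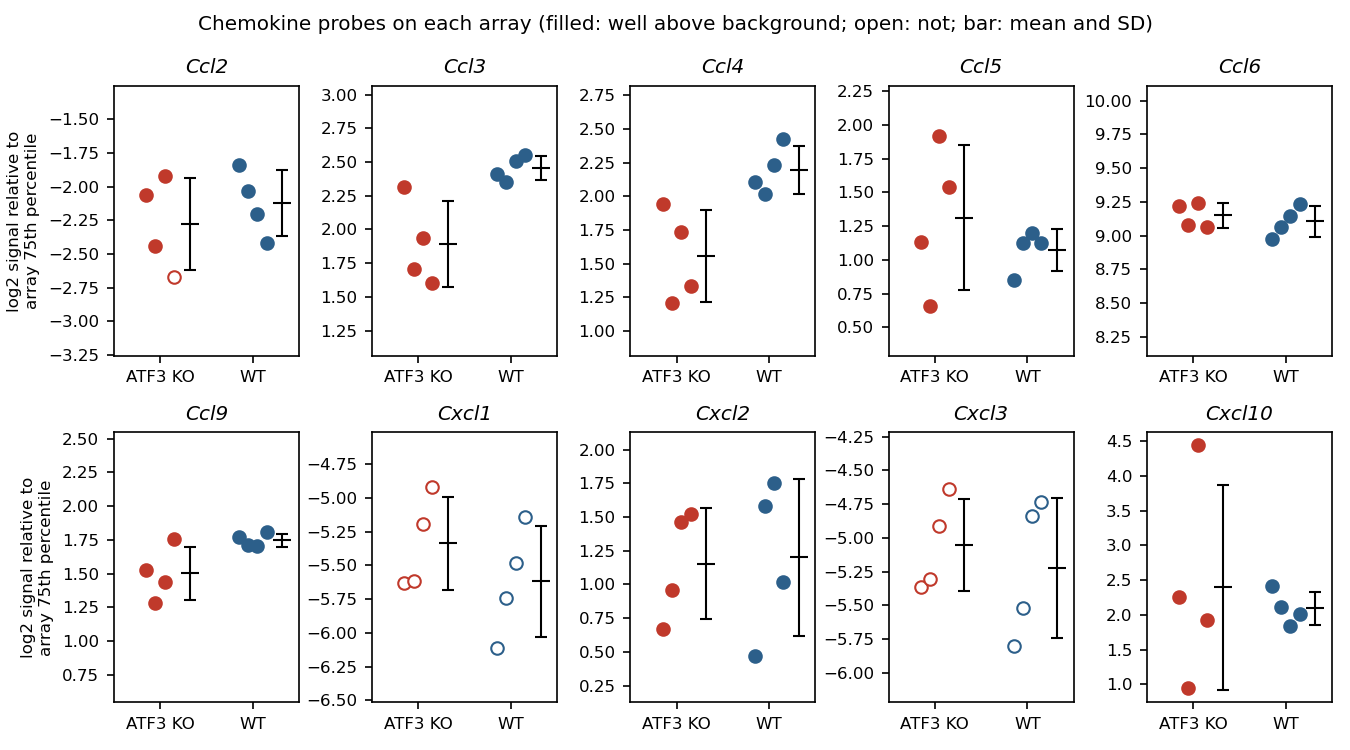
Log2 signal of the 10 chemokine probes relative to the 75th percentile of each array (vertical axis, own range per gene) in the 4 ATF3 KO and the 4 WT arrays; filled points were well above background, open points were not, and bars give the mean and SD. Ccl3 and Ccl4 have all ATF3 KO points under all WT points, Cxcl10 has 1 high ATF3 KO point at 4.45, and Cxcl1 and Cxcl3 have open points only.

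Ccl4, also called MIP-1 beta, was one of the 2 members whose groups did not overlap. It read 1.94, 1.21, 1.74 and 1.34 in ATF3 KO replicates 1 to 4, against 2.10, 2.02, 2.23 and 2.43 in WT replicates 1 to 4. Every ATF3 KO array lay below every WT array, with ATF3 KO replicate 1 closest to the WT values. The group means were 1.56 ± 0.34 in ATF3 KO and 2.19 ± 0.18 in WT (SD, n = 4 each), which is a fold of 0.643. The log2 difference of −0.64 (SE 0.17, 95% interval −1.03 to −0.25) did not pass the threshold over all genes (limma adjusted p = 0.121), and its unadjusted p ranked 834 of 21247 genes. Its adjusted p ran from 0.0384 to 0.314 over 20 alternative settings, and it passed in 1, normexp background correction (−0.65).

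Ccl3, or MIP-1 alpha, is the gene next to Ccl4 on the chromosome and was lower by a similar amount. It read 2.32, 1.71, 1.94 and 1.60 in ATF3 KO replicates 1 to 4, against 2.41, 2.35, 2.51 and 2.55 in WT replicates 1 to 4. The groups did not overlap here either, and the ATF3 KO values spread over 0.717 log2 units, against 0.199 in WT. The means were 1.89 ± 0.32 in ATF3 KO and 2.46 ± 0.09 in WT (SD, n = 4 each), a fold of 0.676. The log2 difference was −0.56 (SE 0.15, 95% interval −0.91 to −0.22, limma adjusted p = 0.122). It passed in 1 of 20 alternatives, without ATF3 KO replicate 1 (−0.71, limma adjusted p = 0.0485), in which Ccl4 differed by −0.77 (limma adjusted p = 0.0758). Both genes were lower in ATF3 KO in all 20 alternatives, by −0.71 to −0.37 for Ccl3 and −0.77 to −0.49 for Ccl4. The groups overlapped for both genes with quantile normalization and with the percentile over probes above background on all arrays, and for Ccl3 also with median scaling and in the deposited log2 table.

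Ccl3 and Ccl4 also followed each other from array to array. Among 13074 other genes with a symbol, Ccl3 had the third smallest root mean square difference from Ccl4 over the 8 arrays, each gene centred on its own mean (0.105 log2 units). The others among the 5 most like Ccl4 were Abi3 (0.0955), which encodes a protein of the Abl interactor family, Plbd2 (0.103), Gngt2 (0.110), a G protein gamma subunit gene, and Paqr6 (0.111). Their log2 differences lay between −0.60 and −0.50, and none passed the threshold (limma adjusted p from 0.118 to 0.151). Paqr6 was above background on 1 ATF3 KO and 3 WT arrays. The likeness includes the difference between the groups that both genes share, and it is given with no test. For the other tested chemokines that measure ran from 0.318 for Ccl9, at rank 4412, to 0.949 for Cxcl10, at rank 12962.

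**Figure D2:**
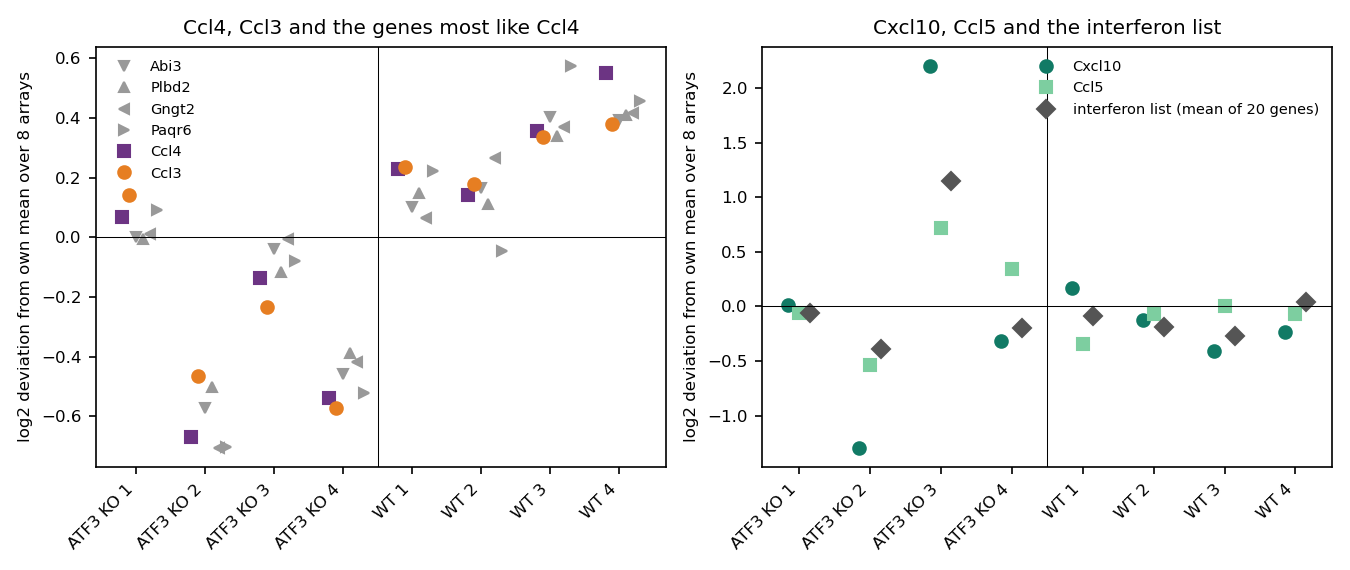
Log2 deviation of each gene from its own mean over the 8 arrays (vertical axis), by array, ATF3 KO left of the line and WT right. Left, Ccl4, Ccl3 and the 4 other genes most like Ccl4, all lowest in ATF3 KO replicate 2 or 4; right, Cxcl10, Ccl5 and the mean of 20 interferon response genes, which are all at their highest in ATF3 KO replicate 3 (2.20, 0.72 and 1.15).

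Ccl9, a chemokine of the macrophage inflammatory group, was intermediate. It read 1.53, 1.28, 1.44 and 1.76 in ATF3 KO replicates 1 to 4, against 1.77, 1.71, 1.70 and 1.81 in WT replicates 1 to 4. ATF3 KO replicates 1, 2 and 3 lay below all WT arrays and ATF3 KO replicate 4 lay among them. The log2 difference was −0.25 (SE 0.11, 95% interval −0.50 to 0.01) and did not pass (limma adjusted p = 0.22, and 0.117 to 0.729 over 20 alternatives). It was below 0 in all 20, and in 3 of them the groups did not overlap.

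Ccl6 had the narrowest range of the 8 tested members within ATF3 KO, 0.177 log2 units, though in WT, at 0.265, Ccl9 and Ccl3 had narrower ones. It read 9.22, 9.08, 9.24 and 9.07 in ATF3 KO replicates 1 to 4, against 8.97, 9.07, 9.15 and 9.24 in WT replicates 1 to 4, and the groups overlapped almost fully. The log2 difference was 0.05 (SE 0.10), with a 95% interval of −0.18 to 0.27 (limma adjusted p = 0.767). Its direction was the opposite under 4 alternatives, normexp, quantile normalization, median scaling and the deposited log2 table. With the percentile over probes above background on all arrays, its groups did not overlap and ATF3 KO was higher (0.20, limma adjusted p = 0.275).

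Ccl5, or RANTES, a chemokine of T and NK cells, read 1.14, 0.66, 1.92 and 1.54 in ATF3 KO replicates 1 to 4, against 0.85, 1.13, 1.20 and 1.13 in WT replicates 1 to 4. The WT values lay within those of ATF3 KO, which spread over 1.25 log2 units against 0.350 in WT. The log2 difference was 0.24 (SE 0.24, 95% interval −0.30 to 0.77, limma adjusted p = 0.516). Of 12 T and NK cell markers 7 were above background on all 8 arrays and 4, Cd8a, Gzmb, Klrb1c and Ncr1, on none. Their summed level, in multiples of the array's 75th percentile, ran from 18.5 to 25.9 in ATF3 KO and from 24.7 to 28.2 in WT arrays, and its part in the Ccl5 values was not tested.

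Ccl2, or MCP-1, the monocyte attractant, was measured near background. It read −2.06, −2.44, −1.93 and −2.67 in ATF3 KO replicates 1 to 4, against −1.84, −2.03, −2.20 and −2.42 in WT replicates 1 to 4. It was above background on 3 ATF3 KO and 4 WT arrays, and the groups overlapped. The log2 difference of −0.15 (SE 0.19, 95% interval −0.57 to 0.27) did not pass (limma adjusted p = 0.599), and it was 0.06 with normexp. Its probe was printed as 10 spots on each array, those of the other members as 1. The SD between these spots within an array was 0.103 to 0.324 on the log2 scale. Each array value is the mean of 9 or 10 spots, and its error is smaller than the spread of single spots. The SD between array values was 0.34 in ATF3 KO and 0.24 in WT. In ATF3 KO replicate 4, 4 of 10 spots were above background, and in WT replicate 4, 8 of 9 usable spots.

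The 3 neutrophil-attracting CXCR2 ligands were not alike in detection. Cxcl1 (KC) and Cxcl3 were not well above background on any array of ATF3 KO or WT, and no difference can be given for them. Their processed signal ran from 3.14 to 3.79 in ATF3 KO and from 3.11 to 4.27 in WT for Cxcl1, and from 3.90 to 4.60 in ATF3 KO and from 3.85 to 5.75 in WT for Cxcl3. Cxcl2 (MIP-2), whose promoter shown above holds the same NF-kB core, was above background on all 8 arrays. It read 0.67, 0.96, 1.46 and 1.52 in ATF3 KO replicates 1 to 4, against 0.47, 1.58, 1.75 and 1.02 in WT replicates 1 to 4. Both groups spread widely and overlapped, and the log2 difference of −0.05 (SE 0.30, 95% interval −0.71 to 0.61) had no stable direction, running from −0.29 to 0.13 over 20 alternatives (limma adjusted p = 0.923).

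Cxcl10, or IP-10, the interferon-inducible chemokine, was set apart by 1 array. It read 2.26, 0.95, 4.45 and 1.92 in ATF3 KO replicates 1 to 4, against 2.41, 2.12, 1.83 and 2.01 in WT replicates 1 to 4. ATF3 KO replicate 3 was the highest and ATF3 KO replicate 2 the lowest of the 8 arrays, so ATF3 KO spanned 3.50 log2 units and WT 0.577. The log2 difference was 0.30 (SE 0.60, 95% interval −1.06 to 1.66, limma adjusted p = 0.754). Without ATF3 KO replicate 3 it was −0.38 (limma adjusted p = 0.356), and without ATF3 KO replicate 2 it was 0.78 (limma adjusted p = 0.44).

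The same array was the highest for all 20 interferon response genes tested. The mean log2 deviation of these 20 genes from their own means was −0.06, −0.39, 1.15 and −0.19 in ATF3 KO replicates 1 to 4, against −0.09, −0.19, −0.27 and 0.04 in WT replicates 1 to 4. ATF3 KO replicate 2, lowest for Cxcl10, was also the lowest array for this list. This was not particular to the interferon genes. By the same mean, that array was lowest for the 2 lists of other chemokines, receptors, and monocytes and macrophages. It was lowest too for T and NK cells, basophils and mast cells, and stroma and endothelium, but not for the remaining lists. Of the interferon list, 0 of 20 passed limma's threshold or an unadjusted p under 0.05. Ifit1 (0.62, SE 0.36) and Oas2 (0.38, SE 0.25) had the smallest p-values. Cxcl9, the sister CXCR3 ligand, read 1.03, −0.25, 2.12 and 0.57 in ATF3 KO replicates 1 to 4, against 0.62, 0.71, 0.95 and 0.51 in WT replicates 1 to 4, and was likewise highest in ATF3 KO replicate 3 and lowest in replicate 2. The part of the interferon genes in the Cxcl10 values was not tested.

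**Figure D3:**
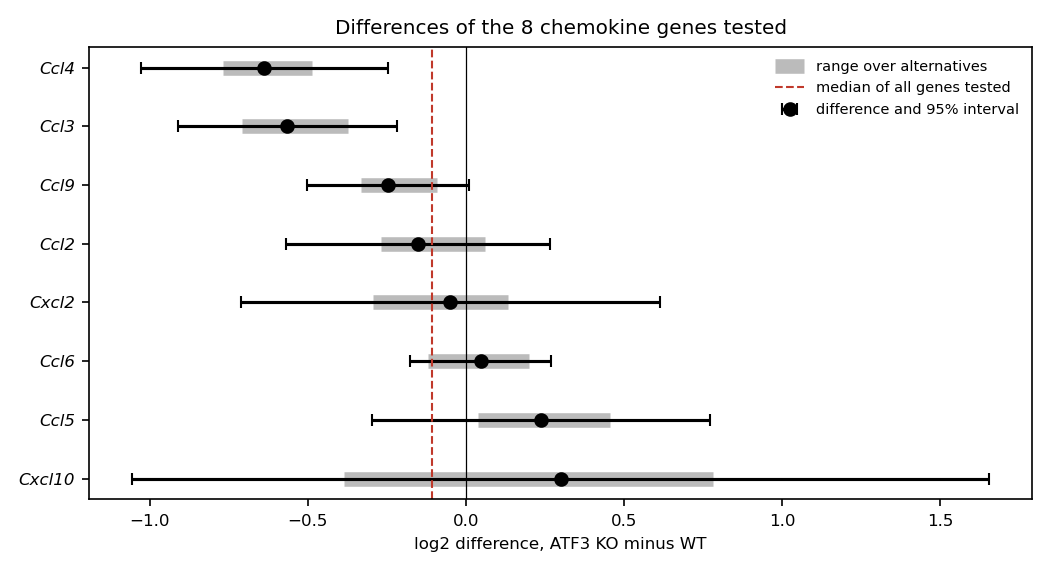
Log2 difference of the 8 tested chemokine genes, ATF3 KO minus WT (horizontal axis); points and bars give the difference and its 95% interval, grey bands the range over the alternative settings, and the dashed line the median of all genes tested (−0.11). The intervals of Ccl4 and Ccl3 lie below 0 before adjustment, and that of Cxcl10 is the widest.

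Other chemokine genes with a named probe on the array numbered 26, and 11 of them were tested. With limma's test 0 of the 11 passed the adjusted threshold. Of the CC genes 0 of 4 had an unadjusted p under 0.05, the smallest p-values being those of Ccl25 (0.12, SE 0.10), a thymic and gut chemokine, and Ccl19 (0.14, SE 0.16), a CCR7 ligand. Among the 7 tested CXC and CX3C genes, 2 had an unadjusted p under 0.05, both lower in ATF3 KO with groups that did not overlap, against 14.5% and 10.9% of all genes. One was Cxcl12, the CXCR4 ligand of marrow stroma that retains neutrophils in the marrow, at 5.22, 4.63, 5.003 and 5.11 in ATF3 KO replicates 1 to 4, against 5.42, 5.94, 5.58 and 5.78 in WT replicates 1 to 4 (log2 difference −0.69, SE 0.16, limma adjusted p = 0.0955). The other was Cxcl14, at 0.28, −0.29, 0.37 and 0.24 in ATF3 KO replicates 1 to 4, against 0.61, 1.18, 0.90 and 1.04 in WT replicates 1 to 4 (log2 difference −0.78, SE 0.17, limma adjusted p = 0.0917). Both passed in 2 of 20 alternatives, with normexp and with trend and robust variances, and lay below 0 in all 20. Beside them, the summed level of 10 stroma and endothelium markers, Cxcl12 left out, ran from 47.0 to 88.1 in ATF3 KO and from 83.6 to 111 in WT arrays, which overlap. Of all 11 markers, Cxcl12 among them, 5 were lower and 0 higher at an unadjusted limma p under 0.05. The shares of all genes were 14.5% and 9.38%. For 3 of the 11 the groups did not overlap, with ATF3 KO lower, against 10.9% of all genes. The list's median was −0.45, against −0.11 for all genes. The part of these markers in the Cxcl12 and Cxcl14 values was not tested. In a sorted population fewer cells of a type and less RNA per cell cannot be told apart.

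Pf4 and Ppbp, platelet chemokines of the CXC family, read higher on average in ATF3 KO, with overlapping groups and no call (0.53, SE 0.27 and 0.66, SE 0.33). Both were highest in ATF3 KO replicate 4 and next in ATF3 KO replicate 1. The summed level of the 11 megakaryocyte and platelet markers ran from 33.1 to 89.8 in ATF3 KO and from 29.2 to 44.1 in WT arrays. It includes both genes and is no separate measure of them. At an unadjusted limma p under 0.05, 5 of the 11 were higher and 0 lower, with Pf4 and Ppbp not among the 5. The shares of all genes were 9.38% and 14.5%. The part of these markers in the Pf4 and Ppbp values was not tested.

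Of 24 chemokine receptor genes 19 were tested, and 1 passed the threshold, higher in ATF3 KO, where 0.367% of all genes did. It was Ccr7, the receptor by which lymphocytes and dendritic cells home to lymph nodes. It read 1.18, 1.56, 1.27 and 1.83 in ATF3 KO replicates 1 to 4, against 0.79, 0.39, 0.47 and 0.43 in WT replicates 1 to 4. The groups did not overlap (log2 difference 0.94, SE 0.16, limma adjusted p = 0.0494), and it passed in 9 of 20 alternatives (adjusted p from 0.0116 to 0.163), among them 2 of the 8 that leave out an array, without ATF3 KO replicate 1 or 3. The summed levels of 2 marker lists were also higher in every ATF3 KO array than in any WT array. For 11 dendritic cell and MHC class II genes they ran from 557 to 798 in ATF3 KO and from 410 to 535 in WT arrays, with Xcr1 above background on none. Siglech made up 74.4% to 83.2% of that sum, and without it the sums ran from 123 to 134 in ATF3 KO and from 105 to 111 in WT arrays. The list was not uniform. Of the 10 genes tested, 6 were higher in ATF3 KO with groups that did not overlap, such as Cd74 (0.34, SE 0.09). Likewise without overlap, 1 was lower, Itgax (−0.51, SE 0.13). The shares of all genes tested were 4.13% and 10.9%. For 10 B lineage genes the sums ran from 67.6 to 83.4 in ATF3 KO and from 54.7 to 64.4 in WT arrays. Their part in the Ccr7 value was not tested.

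The receptors named next gave no call. Cxcr2, the main neutrophil receptor for Cxcl1, Cxcl2 and Cxcl3, read 7.11, 7.13, 7.40 and 6.97 in ATF3 KO replicates 1 to 4, against 7.18, 7.38, 7.08 and 7.34 in WT replicates 1 to 4, with a log2 difference of −0.09 (SE 0.12). Ccr1, which binds Ccl3, Ccl5, Ccl6 and Ccl9, differed by −0.23 (SE 0.14). Ccr2, the receptor for Ccl2, differed by 0.37 (SE 0.19). Cxcr3, the receptor for Cxcl10, had the second smallest p of the receptors (−0.45, SE 0.16, limma adjusted p = 0.157).

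Other genes that inflammatory signals induce together with these chemokines were read from the same fit. Of 19 tested genes induced through Toll-like receptors and NF-kB, 0 passed limma's threshold, and at an unadjusted p under 0.05 there were 3 lower and 0 higher, which for the lower ones is near the 14.5% of all genes. Ptgs2, the inducible cyclooxygenase, differed by −0.48 (SE 0.13) and Osm, the cytokine oncostatin M, by −0.31 (SE 0.11), each with groups that did not overlap. Tnf differed by −0.22 (SE 0.20). The list's median was −0.17, against −0.11 for all genes.

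Of 19 tested immediate early genes 0 passed limma's threshold, and an unadjusted p under 0.05 was reached by 6 that were lower and 1 that was higher, against 14.5% and 9.38% of all genes. Egr1, a zinc finger factor induced within minutes by growth factors, read 2.33, 1.76, 1.45 and 1.85 in ATF3 KO replicates 1 to 4, against 2.62, 2.44, 2.77 and 2.81 in WT replicates 1 to 4, so that the groups did not overlap. Its log2 difference was −0.81 (SE 0.18, limma adjusted p = 0.0913), and it passed in 3 of 20 alternatives. Egr3 was above background on 0 ATF3 KO arrays and on 4 WT arrays. Its measured means were −4.43 ± 0.99 in ATF3 KO and −2.42 ± 0.47 in WT (SD, n = 4 each). Against the lowest detectable signal WT was 1.49-fold higher, which sets no firm lower limit on the difference. Over 15 alternatives the log2 difference of Egr3 ran from −2.48 to −0.27. Egr3 is 1 of the 6 lower genes and entered the comparison only through its WT values, so it adds nothing to that count.

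**Figure D4:**
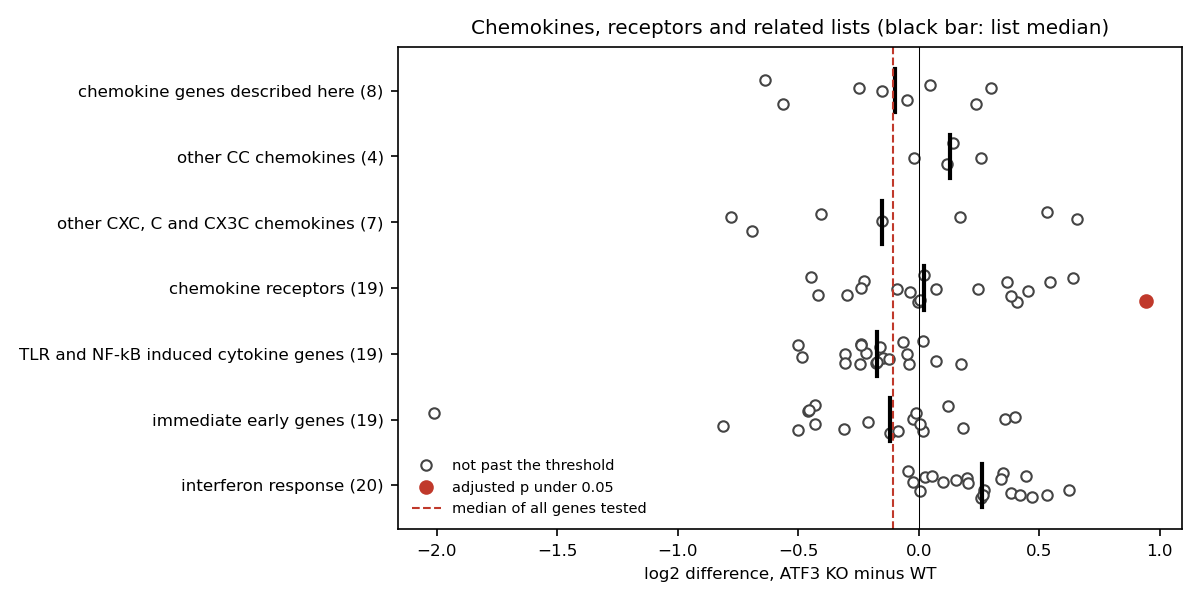
Log2 differences, ATF3 KO minus WT (horizontal axis), of the tested genes in each list, with the number tested in brackets; black bars are list medians, the dashed line the median of all genes (−0.11) and the filled point the 1 gene past the threshold, Ccr7. Ccl4 and Ccl3 are the lowest of the 8 chemokine genes described here.

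Markers of other cells that can make Ccl3 and Ccl4 were set beside those genes. All 16 monocyte and macrophage markers were above background on all 8 arrays, and their summed level ran from 306 to 399 in ATF3 KO and from 377 to 452 in WT arrays. At an unadjusted p under 0.05 there were 7 lower and 0 higher of the 16, against 14.5% and 9.38% of all genes. The macrophage receptor gene Vsig4 fell (−0.92, SE 0.15, limma adjusted p = 0.0481), 1 of 16 where 0.08% of all genes did. Of 10 basophil and mast cell markers 6 were above background on all arrays and 2, Ms4a2 and Cd200r3, on none. Of the 8 tested, Gata2 rose (0.75, SE 0.13, limma adjusted p = 0.0494), where 0.367% of all genes did. The groups of Kit did not overlap and were lower in ATF3 KO (−0.30, SE 0.11), against 10.9% of all genes. The median of the 8 was −0.10. Vsig4 and Gata2 lay just under the threshold, and no range over the alternatives is given for either. The summed level of the 10 basophil and mast cell markers ran from 301 to 405 in ATF3 KO and from 295 to 306 in WT arrays. Hdc made up 97.8% to 98.7% of it. Without Hdc it ran from 4.80 to 6.30 in ATF3 KO and from 5.66 to 6.60 in WT arrays. The part of these cells in the Ccl3 and Ccl4 values was not tested.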

How the data were processed

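Per the labels, Cy3-labelled RNA of 4 ATF3 KO and 4 WT samples was put on Agilent arrays, 1 sample an array. Per the file headers, the authors quantified the arrays with Agilent Feature Extraction 10.9.1.1, while the submitters' processing notes name 10.10. The deposited scanner files hold spot intensity, background-subtracted within each array per the file headers. A second deposited file, over all samples, gives log2 values with centring and normalization unstated. Its columns correlated best with the median spot signal of their own array (r from 0.998 to 1), had medians from 6.13 to 6.15, and served as an alternative only.

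Control spots and spots with an outlier flag were dropped (98 to 159 non-control spots per array) and spots of the same probe averaged. Levels are log2 of the processed signal less that of the array's 75th percentile over 55681 probes, 50.02% of whose values were above background. Probes above background on at least 4 arrays were kept, and the brightest stood for its gene. Symbols came from RefSeq transcripts of GRCm38.p6 (27235 probes, with 28446 unnamed). ATF3 KO and WT were compared with limma 3.58.1 in R 4.3.3 (genotype only, Benjamini-Hochberg adjusted p under 0.05). The test was tried on simulated data first. No 2 arrays were identical (smallest root mean square difference 0.401 log2 units in ATF3 KO and 0.282 in WT). The genes named are all 10 chemokines, the 2 with the smallest p in each related list, genes past the threshold and the 5 most like Ccl4. Other chemokine genes, receptors and markers are given as background, and those singled out among them were chosen after their values were seen. Marker sums that leave out 1 gene were added after the data were seen. Some items are not reported here. The chemokine genes and all lists were chosen with earlier results of these data known. Motif letters were set, and shortened once to 9-letter cores, after the promoters had been read.

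Since the files used here have no mean signal column, normexp was run on the median signal in place of the mean that had been planned.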

Additional observations from a re-analysis of the deposited data

How the results depend on the processing

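The count of all genes past the threshold was 95 (82.1% higher in ATF3 KO). It was 251 with normexp (62.2% higher), 31 with quantile normalization (71% higher), 217 with median scaling, 44 with the percentile over probes above background on all arrays, 10 with no filter, 19 with a filter of at least 1 array, 192 with trend and robust variances, 212 with array weights, 149 from the values the authors deposited, and 403 with 0.1 as the limit on the adjusted p. Leaving out 1 array gave 5 to 226, with 5 without WT replicate 1 or 3 and 226 without ATF3 KO replicate 3. The count among the 8 tested chemokine genes was 0, and 1 with normexp (Ccl4), and 0 to 1 when an array was left out (Ccl3 without ATF3 KO replicate 1). Among other CXC, C and CX3C chemokines it was 0, and 2 with normexp, with trend and robust variances and at an adjusted p under 0.1. Among receptors it was 1, and 0 with quantile normalization, the percentile over probes above background on all arrays, no filter, the filter of at least 1 array and the replicate block, and 0 to 2 when an array was left out. Among immediate early genes it was 0, and 2 with normexp and at an adjusted p under 0.1, 1 with median scaling, trend and robust variances and the deposited log2 table, and 0 to 1 when an array was left out. The cause of these shifts was not tested. The direction turned for Ccl2 with normexp (0.062) and the percentile over probes above background on all arrays (0.00047), for Ccl6 with normexp (−0.12), quantile normalization (−0.044), median scaling (−0.029) and the deposited log2 table (−0.0775), for Cxcl2 with quantile normalization (0.041), the percentile over probes above background on all arrays (0.10) and the deposited log2 table (0.0075), and without WT replicate 2 (0.08), WT replicate 3 (0.13), ATF3 KO replicate 1 (0.11) or ATF3 KO replicate 2 (0.02), and for Cxcl10 without ATF3 KO replicate 3 (−0.38). Leaving out 1 array gave −0.29 to 0.13 for Cxcl2 and −0.38 to 0.78 for Cxcl10. Of the other values of the chemokine genes 143 kept their direction and their side of the threshold, and 2 came to pass it. The median of all genes was −0.18 with median scaling and 0.04 with the percentile over probes above background on all arrays, against −0.11. Relative to the median of all genes, Ccl3 ran from −0.59 to −0.35 and Ccl4 from −0.65 to −0.43. The labels do not say what the replicate numbers mean. Deviations of samples with the same number correlated at 0.19, −0.13, −0.27 and 0.18, and no sample was closest to its own number. Such correlations show no pairing but cannot exclude one. With the replicate block 72 genes passed, and Ccl3 and Ccl4 kept their differences with limma adjusted p of 0.195 and 0.184. Signal over background limits Ccl2, Cxcl1 and Cxcl3, and wide spread limits Cxcl2 and Cxcl10.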
